A study of Mus musculus with 4 samples.

Results

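The genes described here are those whose symbols begin with Slc and a family number, the solute carriers, read in the dentate gyrus of the hippocampus. Probe sets with 1 annotated symbol of that form were taken, without Slc1a2, Slc1a3 and Slc2a1, which gave 183 of the 12488 probe sets on the array and 149 of 8251 genes. The 4 samples were total RNA from the dentate gyrus of young male C57BL/6J mice that had been handled and otherwise left untreated. Samples were taken 1, 2, 4 or 6 h after a parallel group of mice had its last shock, with 1 sample and 1 array at each hour. Shocked mice were not analysed here, so the comparison is between hours within handled controls. How many mice stand behind a sample is not given in the sources used here.

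Solute carriers are membrane proteins that move ions, nutrients, transmitters and metabolites, either down a gradient or by coupling one solute to another. Family numbers group them by sequence, and members of a family often share a kind of substrate. In the hippocampus they clear glutamate, GABA and glycine from the synapse, load synaptic vesicles, set the chloride gradient on which GABA signalling rests and carry sugars, lactate and amino acids into cells. Granule cells of the dentate gyrus send out the mossy fibres, whose terminals store zinc in synaptic vesicles through the transporter encoded by Slc30a3.

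Values are array intensities in the order 1, 2, 4 and 6 h, and an SD is taken over the 4 arrays, so that it holds both the hours and the samples. The median intensity of all probe sets was 185.6, 187.3, 212.8 and 184.8, and the trimmed mean was 500.3 on every array. Of 12 granule cell markers 6 had a probe set and all 6 were past the filter, among them Calb1 at 2542, 3026, 2506 and 2453, Dsp at 948, 1362, 1089 and 1283 and Prox1, the transcription factor that defines granule cells, at 184, 154, 182 and 249. Markers of other cell types were present too, with summed intensities of 45680 to 50030 over 8 astrocyte genes and 22410 to 25440 over 10 interneuron genes. The meningeal list (10 genes) summed to 15280, 35810, 22930 and 16510 and the choroid plexus list (5 genes) to 337.2, 596.7, 2905 and 607.6, the array at 2 h being high for the first and that at 4 h for the second. In each list 1 gene made up most of that high sum. Ptgds read 25917 at 2 h and Ttr 2408 at 4 h. In whole tissue, fewer cells of a type and less RNA per cell cannot be told apart.

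Solute carriers passed the intensity filter about as often as genes in general. A gene was followed across hours if its mean log2 intensity lay at or above the 40th percentile of all genes. As a geometric mean this is an intensity of 170.4. Of 149 solute carriers 86 (57.7%) passed, beside the 60% of all genes that this cut passes by construction. The cut ranks genes by intensity and is no call of expression. They came from 33 of the 40 families on the array. Of the 63 genes under this filter, 4 had all 4 values at or below the floor of 38.3, the 20th percentile of all values, 32 had some values there and 27 had none. Genes were put in classes by family, so a class can hold members with another substrate. Passing was most frequent for the mitochondrial carriers (17 of 20 genes, 85%) and the metal transporters (14 of 17, 82.4%). It was 64.3% (9 of 14) for transporters of nucleotides and sugar conjugates, 55.6% (10 of 18) for neurotransmitter transporter families and 50% each for amino acid (8 of 16) and for ion and pH (10 of 20) transporters. Transporters of organic ions and vitamins (11 of 26, 42.3%) and of sugars and other fuels (6 of 17, 35.3%) passed least often. These shares describe the probe sets on the array and were not tested.

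**Figure D1:**
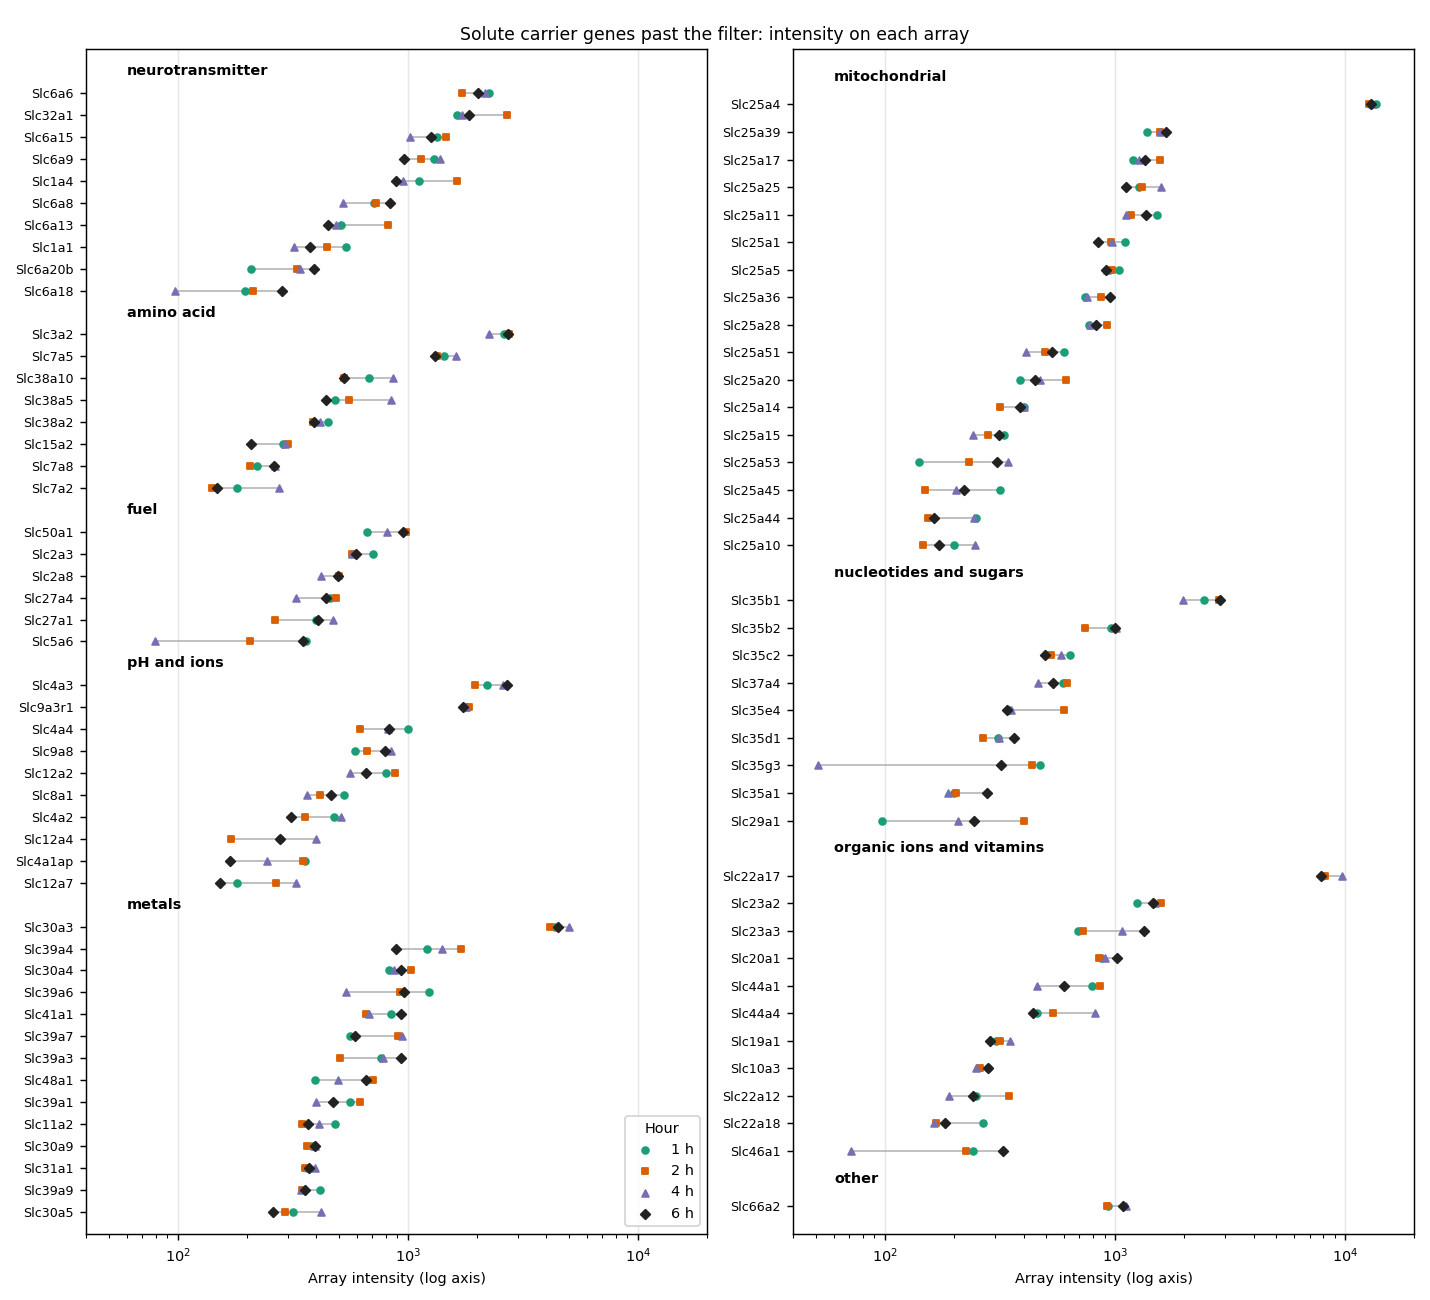
Array intensity (log axis) of the 86 solute carrier genes past the filter, grouped by what their family carries, with 1 point for each of the 4 arrays and a grey line from the lowest to the highest. Slc25a4 and Slc9a3r1 show nearly coincident points, while Slc35g3, Slc5a6, Slc46a1 and Slc6a18 have a single low point at 4 h.

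Promoter sequence was set beside passing the filter, because promoters rich in the dinucleotide CG are as a rule those of widely expressed genes. RefSeq windows of 300 bases, from 250 before to 50 after a gene's start (assembly GRCm38.p6), were listed for 122 of the 149 genes, and the start with the most CG was taken for the 32 genes with several. The median count of CG was 19 in the 70 solute carriers past the filter and 13.5 in the 52 under it, beside 23 and 13 over all genes. Among solute carriers with at least 20 CG, the median of all genes, 61.1% (33 of 54) were past the filter, and among those with fewer 54.4% (37 of 68). Over all genes the shares were 72.9% and 47.7%. Whether the solute carriers differ in this from all genes was not tested. The 3 windows below are shown as examples from each part of that range, with CG in capitals. That of Slc25a39, a mitochondrial carrier required for glutathione import, holds 45 (chr11:102407468-102407767, minus strand), that of Slc30a3 holds 19 (chr5:31093478-31093777, minus strand) and that of Slc10a1, the bile acid transporter of liver, holds 6 (chr12:80968030-80968329, minus strand).
Slc25a39: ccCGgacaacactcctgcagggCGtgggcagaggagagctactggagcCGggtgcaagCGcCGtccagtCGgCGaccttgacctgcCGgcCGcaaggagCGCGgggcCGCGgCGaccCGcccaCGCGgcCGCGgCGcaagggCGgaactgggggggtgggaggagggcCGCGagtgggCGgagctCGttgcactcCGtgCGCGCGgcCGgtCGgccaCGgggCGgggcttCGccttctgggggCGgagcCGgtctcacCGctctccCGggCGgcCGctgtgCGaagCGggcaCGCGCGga
Slc30a3: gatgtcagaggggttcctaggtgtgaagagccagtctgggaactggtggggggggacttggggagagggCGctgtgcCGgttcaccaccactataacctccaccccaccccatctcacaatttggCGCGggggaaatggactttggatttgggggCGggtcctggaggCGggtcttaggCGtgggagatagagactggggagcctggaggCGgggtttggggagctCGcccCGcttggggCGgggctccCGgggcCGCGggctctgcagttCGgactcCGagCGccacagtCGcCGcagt
Slc10a1: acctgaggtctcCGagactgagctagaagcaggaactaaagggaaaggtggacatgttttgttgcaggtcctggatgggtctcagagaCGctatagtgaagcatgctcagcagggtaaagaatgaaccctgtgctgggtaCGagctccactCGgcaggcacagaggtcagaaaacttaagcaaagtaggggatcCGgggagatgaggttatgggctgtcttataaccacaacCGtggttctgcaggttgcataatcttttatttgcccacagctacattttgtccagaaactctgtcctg
The first 2 genes were past the filter, with intensities of 1371, 1564, 1571 and 1657 for Slc25a39 and 4347, 4149, 5014 and 4508 for Slc30a3. Slc10a1 was under it, at 3.5, 54.3, 111 and 4.4, with the 1 h and 6 h values below the floor.

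**Figure D2:**
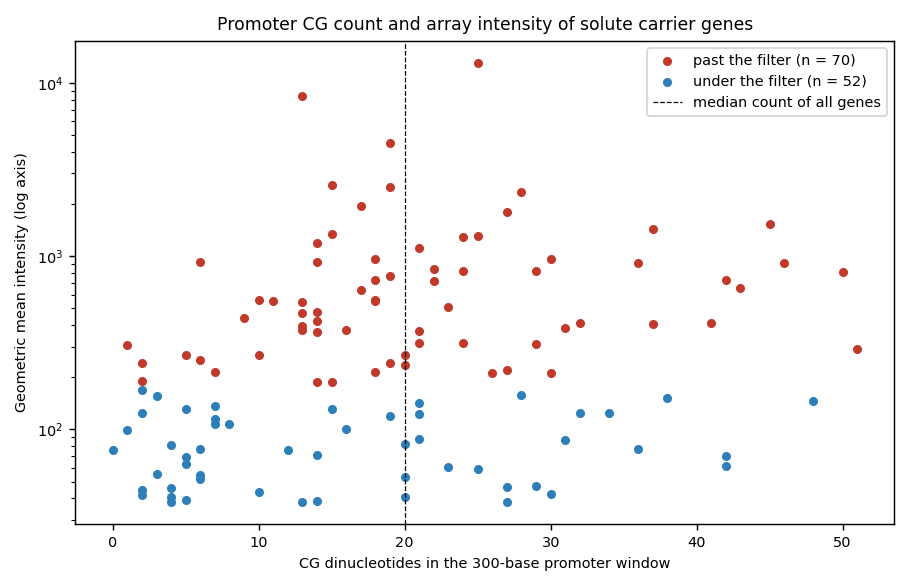
Number of CG dinucleotides in the promoter window against the geometric mean intensity over 4 arrays (log axis) for 122 solute carrier genes, red for the 70 past the filter and blue for the 52 under it. Genes past and under the filter lie on both sides of the dashed line at 20, the median count of all genes.

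Between hours, the solute carriers differed about as much as genes in general. Among the 86 genes past the filter the median range between the highest and the lowest hour was 0.54 in log2 units, against 0.56 for all 4951 genes. Of the 86, 11 (12.8%) spanned over 2-fold and 4 (4.65%) over 4-fold, where the shares of all genes were 15% and 1.86%. Dim genes made up most of these. All genes were put into 4 equal bins by geometric mean intensity. In the lowest bin, from 170.4 to 332.3, 10 of 24 solute carriers (41.7%) and 37% of all genes spanned over 2-fold. In the 3 brighter bins the counts were 0 of 22, 1 of 23 and 0 of 17, against 13.2%, 6.87% and 2.83% of all genes. The single brighter gene was Slc39a6, a zinc importer.

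**Figure D3:**
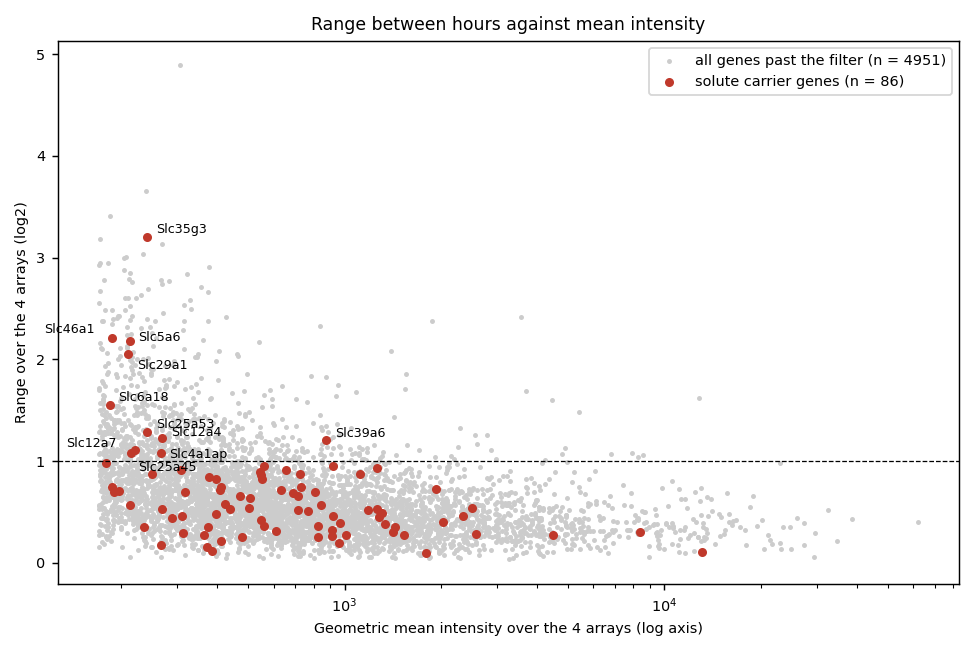
Range over the 4 arrays (log2) against the geometric mean intensity (log axis) for the 4951 genes past the filter in grey and the 86 solute carriers in red. The dashed line marks a 2-fold span, and of the 11 named solute carriers above it all but Slc39a6 lie at mean intensities under 332.3.

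No solute carrier had a trend with the hour that passed the test. A line of log2 intensity on the hour was fitted to every gene with limma, and 0 of the 86 had a Benjamini-Hochberg adjusted p under 0.05, as had 0% of all genes (lowest value among them 0.99993). Without adjustment, p was under 0.05 for 1 gene with a positive slope, beside 1.09% of all genes, and for 1 with a negative slope, beside 0.929%. The first was Slc23a3, a member of the ascorbate transporter family whose own substrate is not vitamin C, at 689.9, 722, 1076 and 1331 (slope 0.2 ± 0.06 log2 per h, SE, n = 4, limma unadjusted p = 0.00663). Its second probe set did not follow, with 258, 343, 349.7 and 248. The other was Slc4a1ap, named for its binding to the red cell anion exchanger and not itself a transporter, at 357, 350.5, 244 and 169 (slope −0.23 ± 0.1, limma unadjusted p = 0.0367).

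Steps in 1 direction were few. Values were higher at every step in 3 of 86 genes (3.49%, against 2.65% of all genes) and lower at every step in 2 (2.33%, against 2.4%). The ascending genes were Slc23a3, Slc25a39 and Slc6a20b, the last a gene of family 6 at 208, 329, 338 and 391, with a 6 h value 1.88 times its 1 h value. The descending genes were Slc4a1ap, whose 1 h value was 2.12 times its 6 h value, and Slc25a5, at 1043, 972, 920.3 and 912. Slc25a5 encodes an ADP/ATP carrier of the inner mitochondrial membrane, and its values lay within 1.14-fold of each other. Its other probe sets did not fall at every step. A second one past the filter read 238, 251, 130 and 203, and one under it read 100, 97.8, 215 and 151.

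Peak hours were spread over all 4 arrays. The highest value fell at 1 h in 23 genes (26.7%, against 23.1% of all genes), at 2 h in 24 (27.9%, against 23.2%), at 4 h in 23 (26.7%, against 31.4%) and at 6 h in 16 (18.6%, against 22.3%). The lowest fell at 1 h in 16 (18.6%, against 24.5%), at 2 h in 25 (29.1%, against 23.2%), at 4 h in 25 (29.1%, against 29.2%) and at 6 h in 20 (23.3%, against 23.1%). Scaling each array to its median put the middle gene at 4 h at −0.13 log2 from its mean over hours, in place of 0.02 as deposited. With that scaling 11 solute carriers (12.8%) and 16% of all genes were highest at 4 h, so the number with a peak there rests on the scaling.

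**Figure D4:**
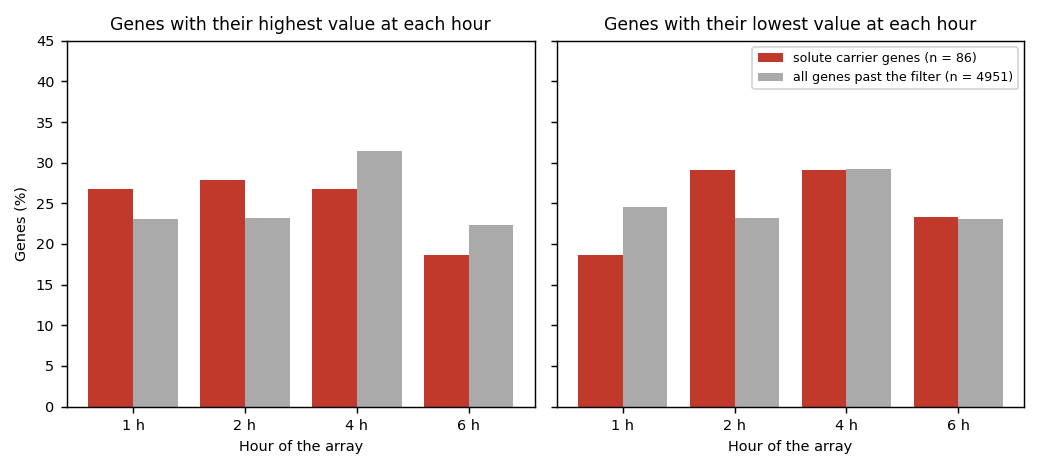
Share of genes (%) whose highest (left) or lowest (right) of 4 values fell at each hour, in red for the 86 solute carriers and in grey for all 4951 genes past the filter. At 4 h the highest value was held by 26.7% of solute carriers and 31.4% of all genes, and bars start at 0.

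A single array stood apart by over 2-fold from every other hour in 5 solute carriers, always as a low value. None lay that far above all other hours (0 of 86, against 0.747% of all genes), and 5 lay below (5.81%, against 2.91%). Of these, 4 were low at 4 h: Slc35g3, Slc46a1, Slc5a6 and Slc6a18. The fifth, Slc29a1, was low at 1 h. Among all 4951 genes, 144 lay that far below, and 48 of them were low at 4 h, more than at any other hour. Slc35g3, a member of the nucleotide sugar transporter family, read 472, 436, 51.3 and 318, a 9.2-fold span. It has 1 probe set, and without the 6 h array its slope through the other 3 was called by limma (−1.14 ± 0.2 log2 per h, SE, adjusted p = 0.0382), the 1 such call among solute carriers with any array left out. That fit had 1 residual degree of freedom and called 9 of all genes, and the fit without the 1 h array called 13 genes, none a solute carrier. Slc46a1, which carries folate into cells with protons, read 241, 224, 70.9 and 327. Slc5a6, the sodium-coupled carrier of biotin and pantothenate, read 359.5, 205, 79.4 and 350.4. Both low values were above the floor of 38.3. Over the whole table without the filter, 10 solute carriers lay above and 12 below all other hours, against 515 and 491 of all 8251 genes.

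Transmitter transporters of the plasma membrane and the vesicle were read in families 1, 6, 17, 18 and 32. The vesicular GABA and glycine transporter Slc32a1, which fills inhibitory vesicles, read 1640.4, 2707, 1720.3 and 1843, highest at 2 h, while the other 3 arrays lay between 1640.4 and 1843. For comparison, the interneuron enzyme Gad1 read 3985, 4036, 3712 and 3492, and Gad2, under the filter, 150.5, 122, 79.9 and 42.5. Highest at 2 h were 4 of 8 interneuron markers past the filter, beside 23.2% of all genes. The 10 interneuron genes summed to 25440, 24260, 22410 and 23300, highest at 1 h. Cck made up the largest part of these sums, at 11043, 10035, 9965 and 11298. The part of interneurons in the Slc32a1 value was not tested. The glycine transporter gene Slc6a9, active in glia and at NMDA receptor synapses, read 1298, 1139, 1375 and 962, and its values lay within 1.43-fold. Slc1a1, the neuronal glutamate and cysteine transporter, read 538, 445, 321 and 374, lowest at 4 h. Slc1a4, which exchanges serine and alanine, read 1123, 1628, 948 and 891. It was highest at 2 h. Slc6a13, a GABA and taurine transporter of the leptomeninges, also stood high at 2 h, at 511, 816, 488 and 449. At that hour the meningeal genes Ptgds (8454, 25917, 13765 and 8912), Igf2 (1849, 4402, 2955 and 2521) and Dcn (599.7, 1257, 701 and 964) had their highest values, whereas the other 4 of 7 meningeal genes past the filter did not. The part of meninges in the Slc6a13 value was not tested.

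The remaining members of family 6 carry taurine, creatine and neutral amino acids. The taurine transporter gene Slc6a6 had a mean of 2038 ± 238 (SD, n = 4), and that of the neuronal branched-chain amino acid transporter Slc6a15 was 1272 ± 189 (SD, n = 4). Slc6a8, through which cells take up creatine, read 716, 726, 520.1 and 836. A low value at 4 h marked both Slc6a8 and Slc6a15. Slc6a18, a neutral amino acid transporter known from kidney, read 196, 213, 97 and 284, a 2.93-fold span. A second, dimmer Slc6a6 probe set that did not pass was lowest at 4 h instead of 2 h, at 296, 165, 41.4 and 161.

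Monoamine and acetylcholine carriers, which serve axons that enter the dentate gyrus from other brain regions, were under the filter. The noradrenaline transporter gene Slc6a2 read 174, 75.4, 165 and 114, the dopamine transporter gene Slc6a3 89, 65.3, 108 and 72.8 and the vesicular acetylcholine transporter gene Slc18a3 22.2, 31.5, 36.2 and 28.3. Every Slc18a3 value lay under the floor. The serotonin transporter gene Slc6a4 gave discordant probe sets: the brighter read 167, 129.8, 415 and 69.4 and the other 111, 82, 55.7 and 13.5, the first highest at 4 h and the second at 1 h. Slc1a6, a glutamate transporter of Purkinje cells, read 220.2, 136, 56.6 and 142 and was under the filter as well.

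The pair that makes up system L, the exchanger of large neutral amino acids, gave even signals. Slc3a2, the heavy subunit that carries its partners to the membrane, read 2625, 2743, 2253 and 2732. Its light partner Slc7a5, which forms the transport path, read 1433, 1342, 1618 and 1312. Neither varied by more than 1.24-fold, and the lowest hour of the first (4 h) was the highest of the second. Slc7a8, another light subunit, read 222, 206, 263 and 261, and Slc7a2, an arginine transporter, 180.1, 140.2, 276 and 147. Slc38a5, a glutamine carrier of glia, read 484, 552, 846 and 439, and Slc38a10, a related transporter, 675, 526, 865 and 529; both were highest at 4 h. Slc15a2, the peptide transporter of astrocytes and choroid plexus, read 288, 299.8, 291 and 207, lowest at 6 h. None of the 8 genes past the filter in this class, which leaves out the amino acid carriers of family 6 such as Slc6a18, spanned 2-fold. Of the 8, 5 were highest at 4 h, beside 31.4% of all genes, a count open to the scaling of that array as given above.

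The families of sugar and fuel carriers had 6 of 17 genes past the filter, of which Slc5a6, grouped here by its family, carries vitamins. Slc2a3, the neuronal glucose transporter, read 709, 572, 574 and 594, and the intracellular hexose transporter Slc2a8 read 497, 502, 420.5 and 498. Both stayed within 1.24-fold. Slc50a1, a sugar efflux carrier of the Golgi, had values of 664, 985, 815 and 949. The fatty acid transport proteins Slc27a1 and Slc27a4 read 397, 264, 474 and 405 and 459.9, 485, 325 and 443, the first highest and the second lowest at 4 h. None of the 3 monocarboxylate transporter genes passed: the lactate carrier Slc16a1 read 53.9, 7.8, 121 and 97.7, and Slc16a7, its higher-affinity neuronal relative, 21.4, 27.9, 11.3 and 53.7. The fructose transporter Slc2a5, found in brain on microglia, read 343, 287, 71.3 and 41.5 and missed the filter at a mean log2 intensity of 7.03.

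Chloride transporters of family 12 differed in their peak hours. Slc12a2, the sodium-potassium-chloride importer that raises chloride in immature neurons and glia, read 804, 878, 558 and 658. The potassium-chloride exporters Slc12a4 and Slc12a7 read 279, 171, 399.8 and 277 and 180, 268, 328 and 152. Both exporters were highest at 4 h, the hour at which Slc12a2 was lowest, and both spanned over 2-fold (2.34-fold and 2.15-fold). They lay in the lowest intensity bin, where 37% of all genes spanned over 2-fold. Peaks at 4 h are open to the scaling of that array, and the opposed hours were not tested. The neuronal exporter Slc12a5, which keeps chloride low in mature neurons, read 211, 122, 88 and 177 through its 1 probe set and stayed under the filter with its lowest value at 4 h.

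Bicarbonate, proton and calcium exchangers make up the rest of the ion carriers. The neuronal chloride/bicarbonate exchanger Slc4a3 had a mean of 2361 ± 341 (SD, n = 4), and the sodium bicarbonate cotransporter Slc4a4 of astrocytes had 817.4 ± 157 (SD, n = 4). Slc8a1, a sodium/calcium exchanger, read 528, 415, 366 and 462, and Slc9a8, a sodium/proton exchanger of the Golgi, 589, 667, 845 and 794. The evenest of all 86 genes was Slc9a3r1, at 1808, 1849, 1782 and 1732, a range of 0.1 log2. It encodes a scaffold protein that binds the proton exchanger and other membrane proteins, and is itself no transporter.

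Zinc transporters were well represented, with 4 of 5 exporters and 6 of 7 importers past the filter. Slc30a3, which loads zinc into glutamate vesicles, had a mean of 4505 ± 370 (SD, n = 4), with the 4 arrays within 1.21-fold. A second Slc30a3 probe set was under the filter, at 53.7, 8.8, 23.1 and 4.7. Slc30a4 read 829, 1034, 869 and 934, Slc30a5 of the secretory pathway 317, 294, 418 and 258 and Slc30a9 384, 365, 394 and 395. Slc30a9 had a range of 0.12 log2 and was among the 5 narrowest. Slc30a1, the zinc exporter of the plasma membrane, read 109.8, 95.2, 90.2 and 29.1 and stayed under the filter. The median range was 0.81 log2 over the importers past the filter and 0.3 over the exporters, a difference that was not tested.

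Among the importers, Slc39a6 read 1238, 927, 538 and 958, a 2.3-fold span with the low value at 4 h. Slc39a7, which releases zinc from the endoplasmic reticulum, read 562, 904, 943 and 590.1, low at 1 and 6 h and high at 2 and 4 h. Slc39a4, the intestinal zinc importer, read 1210, 1700.1, 1402 and 892, but a second probe set under the filter read 12.3, 135, 227 and 113. Slc39a1, Slc39a3 and Slc39a9 read 559, 620.4, 399.6 and 472, 761, 506, 776 and 929.5 and 414, 347, 343 and 356, with no shared peak. Among carriers of other metals, the iron transporter Slc11a2 had a mean of 401.1 ± 59.4 (SD, n = 4), the copper importer Slc31a1 371.2 ± 17.2 (SD, n = 4), the magnesium transporter Slc41a1 778.1 ± 133 (SD, n = 4) and the heme transporter Slc48a1 564.7 ± 143 (SD, n = 4).

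Mitochondrial carriers, which shuttle metabolites across the inner mitochondrial membrane, were the largest family with 17 of 20 genes past the filter and a median range of 0.44 log2. Slc25a4, the ADP/ATP carrier of excitable tissue, read 13638, 12709, 13076 and 12903, a range of 0.1 log2. The citrate carrier Slc25a1 ranged over 0.39 log2 and the oxoglutarate carrier Slc25a11 over 0.45. The carnitine carrier Slc25a20 ranged over 0.66. Their highest value fell at 1 h in 9 of 17 genes, beside 26.7% of the 86 solute carriers and 23.1% of all genes, with no test of the difference. That count depends on the probe set used. Slc25a1, Slc25a5 and Slc25a51 are among the 9, and their other probe sets were highest at 2, 4 or 6 h. Slc25a53 and Slc25a45, orphans of the family, spanned over 2-fold, at 140.2, 232, 342 and 305 and 315, 149, 204 and 221. Slc25a3, the phosphate carrier, was under the filter at 88.8, 49.7, 57.6 and 225 through its 1 probe set. It supplies the phosphate used for ATP synthesis.

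Carriers of nucleotides and sugar conjugates serve the endoplasmic reticulum and the Golgi. Slc35b1, which brings ATP into the endoplasmic reticulum, read 2446, 2843, 1967 and 2859.6. Slc35b2 imports the sulfate donor of the Golgi and read 959, 737, 1011 and 1004, with a single lower value at 2 h. The glucose 6-phosphate carrier Slc37a4 read 593, 618, 463 and 538. Slc29a1, the nucleoside transporter that carries adenosine across neuronal membranes, read 97.3, 402, 207 and 243, a 4.13-fold span from 1 h to 2 h. Its second probe set was also highest at 2 h but lowest at 4 h, with 112, 311, 29.3 and 208.

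Organic ion and vitamin carriers had a median range of 0.7 log2. Slc22a17, an orphan of the organic ion family that binds the iron-carrying protein lipocalin, had a mean of 8415 ± 867 (SD, n = 4). Slc23a2, which takes vitamin C into neurons, read 1248, 1591, 1495 and 1459, and the phosphate transporter Slc20a1 870.2, 854, 904 and 1024. Slc10a3 read 279, 258, 249.5 and 282, a range of 0.18 log2. The folate carrier Slc19a1 read 304, 316, 349.6 and 286 and the urate transporter Slc22a12 248, 347, 190.1 and 241. The choline transporter-like genes Slc44a1 and Slc44a4 read 792, 856, 456 and 599 and 458, 537, 814 and 439, lowest at 4 h in the first and highest at 4 h in the second. Slc66a2, a PQ-loop protein, had a mean of 1013 ± 100 (SD, n = 4).

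Of the solute carriers known from choroid plexus or blood, 3 under the filter are given here, picked after their 4 h peak was seen. Slc15a2, also of choroid plexus, had no peak at 4 h, as given above. Slc46a1 and Slc12a2, which choroid plexus expresses too, were both lowest at 4 h. Carriers of choroid plexus were not counted as a set. Peaks at 4 h were not particular to such genes, and Slc10a1 of liver was highest there too. Over the whole table without the filter, 5 solute carriers lay over 2-fold above all other hours at 4 h. So did 247 of all 8251 genes, more than at any other hour. Slc4a5, a sodium bicarbonate cotransporter of choroid plexus, read 4.2, 13.4, 124 and 4, above the floor at 4 h alone. Slc16a8, a lactate carrier of choroid plexus and retinal pigment epithelium, read 77.1, 22, 256 and 130.4. At 4 h transthyretin (Ttr), the defining gene of choroid plexus, read 2408 against 81.3, 234 and 191 at 1, 2 and 6 h. Without Ttr the other 4 choroid plexus genes summed to 255.9, 363.1, 497 and 416.4, and none passed the filter. The part of choroid plexus in either value was not tested. Slc4a1, the anion exchanger of red cells, read 64.2, 213, 278 and 32.3, while the globin gene Hba-a1 read 4208, 2328, 2552 and 3814, highest at 1 h.

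Second probe sets of the same gene seldom shared its peak hour. Of the 149 genes, 29 had more than 1 probe set, and in 7 of them a second probe set was also past the filter. Genes past the filter had 26 second probe sets, of which 19 were under it. Of these 19, 4 shared the highest hour, not counting those with all 4 values at the floor. The hour of the highest value was shared in 0 of the 7 pairs past the filter and the lowest in 3. Over all genes, 31.6% of 779 second probe sets past the filter shared the highest hour and 32.6% the lowest. Whether the 7 pairs differ from all genes was not tested. The widest disagreement was in Slc19a1, where the second probe set read 259, 74.1, 343 and 369.5, a range of 2.32 log2 with its low value at 2 h, where that of the probe set used was 0.29. The pair for Slc25a1 had ranges of 0.39 and 0.39, and the pair for Slc11a2 0.48 and 0.47, so that in these genes both probe sets had like ranges and different peaks.

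**Figure D5:**
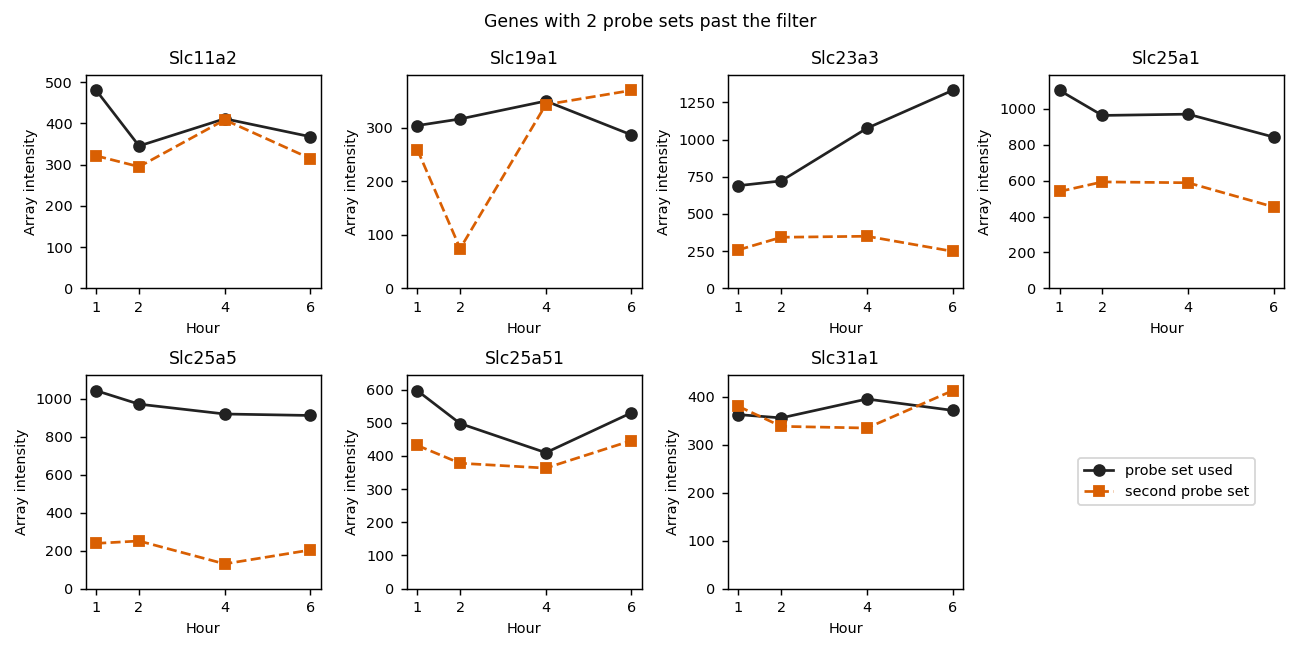
Array intensity by hour for the 7 solute carrier genes with 2 probe sets past the filter, black circles for the probe set used and orange squares for the second. No pair shares its highest hour, and the second probe set of Slc19a1 has a low point of 74.1 at 2 h.

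Proteins that work beside solute carriers were read from a list of 54 ion pumps, subunits, scaffolds and other transporters, of which 35 had a probe set and 27 were past the filter. None had a trend called by limma, and 12 slopes were positive and 15 negative; at an unadjusted p under 0.05 there was 1, upward, beside 1.09% of all genes. Fxyd7, a brain regulator of the sodium pump that makes the gradient many carriers use, read 552, 243, 82.6 and 466, lowest at 4 h. The t-SNARE Stx1a, which binds several family 6 transporters, read 1234, 549.7, 898 and 857, and the organic anion transporter Slco3a1 279.7, 147, 322 and 166. The SNARE protein gene Snap25 and the proton pump subunits Atp6v1a and Atp6v1b2, which power vesicle filling, had means of 21190 ± 1830 (SD, n = 4), 14380 ± 903 (SD, n = 4) and 12400 ± 424 (SD, n = 4). The list's median range was 0.46 log2, and 4 of 27 spanned over 2-fold, beside 15% of all genes.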

How the data were processed

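The authors deposited a table of linear array intensities, 1 value for each probe set in each sample; no label or header says how the authors made it, and equal trimmed means (500.3, leaving out 2% at each end) point to a scaling of whole arrays. Controls (66), probe sets without a symbol (1193) and with several (396, of which 1 names solute carriers) were left out, which left 10833 probe sets. For each gene the probe set with the highest mean was used. Values under the 20th percentile (38.3) were set to it, log2 was taken and genes with a mean under the 40th percentile (log2 7.41) were not tested. Slopes on the hour came from limma 3.58.1 under R 4.3.3, by lmFit and eBayes with an intensity trend (2 residual degrees of freedom), with p-values adjusted over all genes tested. The fit was checked on simulated data with planted slopes of several sizes. It recovered none of the smallest, only a part of the middle size and most of the largest. The smallest were of the size fitted for Slc23a3. Trends as steep as that can therefore be missed, and the lack of a call does not show that trends are absent. Named genes are all members past the filter in families 1, 2, 3, 6, 7, 12, 16, 17, 18, 30, 32 and 39. Others are the 2 highest means of every other family, the 15 widest and 5 narrowest ranges and up to 4 stepwise genes per direction, with the 3 widest and 3 highest of the partner list. Genes named outside this rule were chosen after their values were seen. Members and lists were chosen with earlier results of these data known. Family roles come from general knowledge. The number of arrays limits the precision. p values measure the scatter around a line with 1 array per hour, in which hour and array cannot be told apart. All 149 gene identifiers were named by the platform annotation. No coordinates are given for genes, since no build is named for the array; promoter windows carry RefSeq's own.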

Additional observations from a re-analysis of the deposited data

Results flagged for a closer look

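In 3 of the 67 named solute carriers, 1 array lay apart from 3 that were close together on the log2 scale, its gap to the nearest, as a share of the whole range, being over Dixon's 95% critical value for 4 samples. Chance marks about 1 in 20 groups of 4, and 5.64% of all genes past the filter were so marked, as were 4.65% of solute carriers. The hexose transporter gene Slc2a8 was low at 4 h (gap 0.951 of the range; 497, 502, 421 and 498). The peptide transporter gene Slc15a2 was low at 6 h (0.886; 288, 299.8, 291 and 207). The sulfate donor carrier Slc35b2 was low at 2 h (0.833; 959, 737, 1011 and 1004). Each is a single array with no replicate.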

How the results depend on the processing

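The number of solute carriers with a called trend was 0 under every alternative with 4 arrays, and 0 to 1 with an array left out (1 residual degree of freedom; the call was Slc35g3 without the 6 h array). The number spanning over 2-fold was 11; it was 18 with the mean of all probe sets, 40 with a filter at the 20th percentile, 51 with no filter and 5 to 10 with an array left out (5 without 4 h, 6 without 1 h). Those highest at 4 h were 23, or 11 with array median scaling, 42 with the filter at the 20th percentile and 47 with no filter; without the 4 h array there is no value. Those over 2-fold from every other hour were 5, or 2 with an added constant of 50, 18 with the filter at the 20th percentile, 22 with no filter and 3 to 6 with an array left out (3 without 1 h and 3 without 4 h). A weaker filter tests more genes (122 or 149); other causes were not tested. Of the 11 genes spanning over 2-fold, 11 still did with a floor at the 30th percentile, 10 with either rescaling, 8 with the added constant and 4 without the 4 h array. The range of named genes moved by over 1 SD in 22 of 66 without the 4 h array and in 14 of 67 with median scaling. With an array left out, the range of a probe set can only stay or shrink, so the direction of those changes was fixed in advance. Background was not measured here, so what limits dim genes was not tested. Because all arrays form 1 group, no paired analysis was possible.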
